A study of Mus musculus with 36 samples.

Results

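The serotonin receptor genes described here are Htr1a, Htr1b, Htr1d, Htr1f, Htr2a, Htr2c, Htr3a, Htr4, Htr5a and Htr7. They were chosen by symbol alone, as the transcript clusters (the probe groups that give 1 signal per gene) whose only gene symbol was that of a listed receptor. Each gene had a single cluster, so they made up 10 of the 65956 clusters tested. Total RNA of amygdala, hippocampus and cerebral cortex was hybridised to 18 Affymetrix mouse transcriptome arrays, 3 for each treatment and region, and every array was summarised both per gene and per exon. The study asked how gene expression in the brain differs after chronic diazepam (DZP), a benzodiazepine that enhances the action of GABA at its GABA A receptors.

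The DZP group comprised male C57BL/6 mice, 8 weeks old, injected intraperitoneally 2 times a day for 10 days with DZP dissolved in Intralipid, a fat emulsion. The labels give the DZP as 5 mg/ml, whereas the study's methods give the same figure in mg per kg of body weight, and the labels and the methods also differ on the hour of the evening injection. The Ctrl group comprised male C57BL/6 mice of the same age that were given Intralipid alone on the same schedule. Both groups were anaesthetised with medetomidine, midazolam and butorphanol and perfused with artificial cerebrospinal fluid before the regions were punched from coronal slices. Midazolam is itself a benzodiazepine, so the Ctrl mice had also received a drug of this class by the time of dissection. The regions were taken from the same mice, and the labels do not say which arrays share a mouse. The p-values therefore measure the spread between arrays. These are bulk samples, in which fewer cells of a type and less RNA per cell cannot be told apart.

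Serotonin is made by neurons of the raphe nuclei in the brainstem, whose axons reach all 3 regions, while the receptors are made by the neurons and other cells that receive the transmitter and, in part, by the raphe neurons themselves. The Htr1 and Htr5 receptors couple to inhibitory G proteins that lower cyclic AMP, the Htr2 receptors to Gq and phospholipase C, and the Htr4, Htr6 and Htr7 receptors to Gs, which raises cyclic AMP. Htr3 receptors are ion channels opened by serotonin, and several of these receptors are targets of drugs for anxiety, migraine, psychosis and nausea.

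All values are the deposited signal intensities on the log2 scale, so a difference of 1 is a doubling of signal. The error of a difference is its standard error (SE) in a limma model fitted to all 18 arrays and all clusters, and a gene is called higher or lower where the p-value adjusted over the 65956 clusters by the Benjamini-Hochberg method is under 0.05. An exact permutation test of 3 arrays against 3 cannot give a p below 0.10 and was not used. Array medians lay between 5.86 and 6.03, and arrays of 1 group correlated across clusters with r between 0.9932 and 0.9965. The 5222 negative-control probe sets averaged 6.71 to 6.80 per array, above the array medians, so this level marks dim signals but is no limit of detection. Htr1b, Htr1f, Htr2a, Htr3a and Htr5a lay above it on 18 of 18 arrays, Htr1a and Htr2c on 12, Htr7 on 9, Htr4 on 8 and Htr1d on 0. In Ctrl mice, all 14 measured markers of hippocampal field and dentate neurons were higher in hippocampus than in cortex, where 15.0% of all clusters differed. Of 14 markers of amygdala neurons, 10 were higher in amygdala than in cortex, where 15.5% of all clusters differed. The lists were not exclusive to a region. In amygdala against cortex 7 of 14 hippocampal markers were higher and 1 lower. In hippocampus against cortex 5 of 14 amygdala markers were higher and 3 lower. Markers of striatal projection neurons were also higher in amygdala than in cortex, 9 of 13, and 1 was lower.

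Among the receptor genes, 7 of 10 differed between amygdala and cortex in DZP mice and 7 of 10 in Ctrl mice, where 20.4% and 15.5% of all clusters did. Between hippocampus and cortex 7 of 10 differed in DZP mice and 7 of 10 in Ctrl mice (12.3% and 15.0% of all clusters), and between amygdala and hippocampus 7 of 10 and 7 of 10 (10.7% and 10.3%). The genes called in both treatments numbered 7, 7 and 6 in these 3 contrasts, all with the same direction in both. The median difference of the 10 genes between amygdala and cortex was 0.23 in DZP mice and 0.34 in Ctrl mice, against 0.08 and 0.03 over all clusters, with members between -1.60 and 3.94 in Ctrl mice. Htr2c and Htr4 were called in all 6 contrasts, Htr2a and Htr5a in 5, Htr1a, Htr1b, Htr1d, Htr1f and Htr3a in 4, and Htr7 in 0. Htr2c, Htr1b and Htr1d were highest in amygdala, Htr4 and Htr1a in hippocampus, and Htr2a and Htr5a in cortex.

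**Figure D1:**
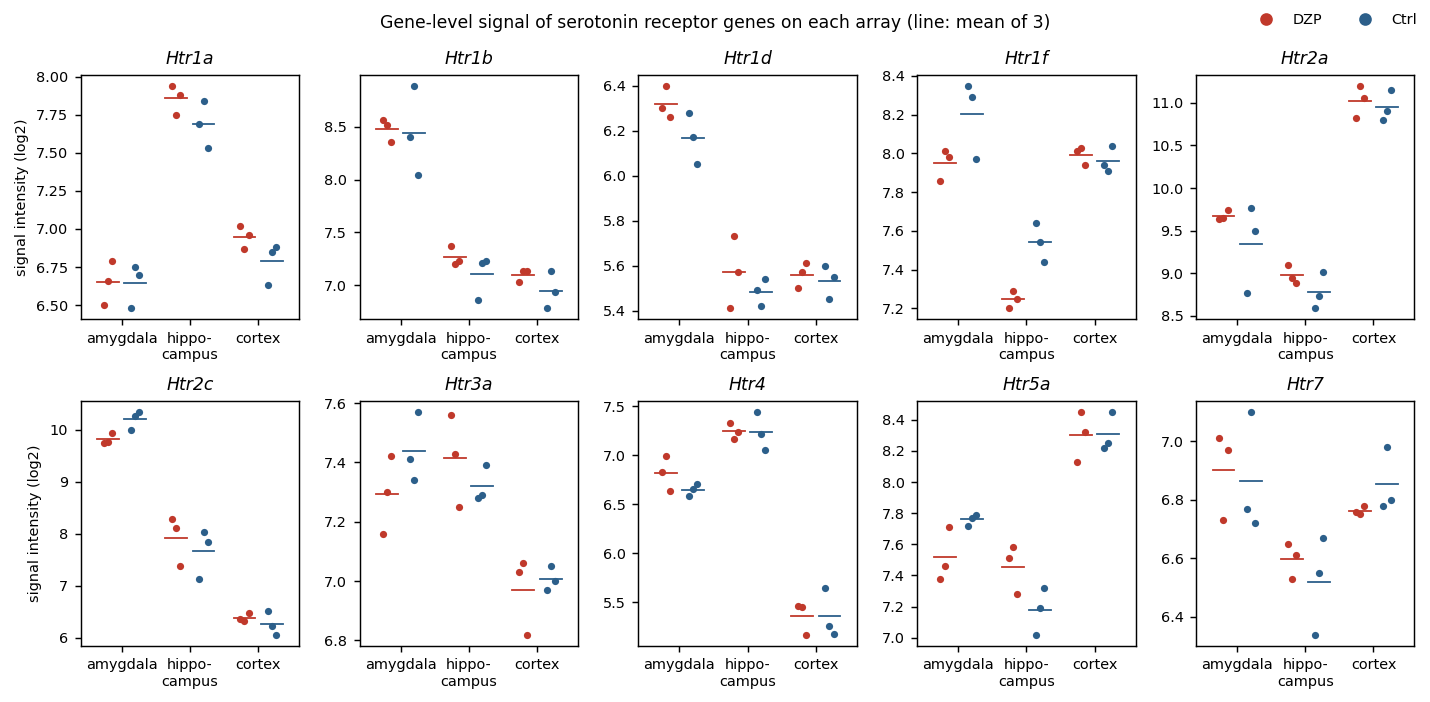
Signal intensity (log2) of each serotonin receptor gene on the 18 arrays, with DZP arrays in red left of Ctrl arrays in blue in each region and a line at the mean of 3 arrays; the vertical scale differs between genes. Htr2c reads from 9.74 to 10.34 in amygdala and from 6.06 to 6.52 in cortex, and Htr4 from 7.05 to 7.44 in hippocampus and from 5.17 to 5.64 in cortex.

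Htr2c encodes a Gq-coupled receptor that curbs appetite and dopamine release, and it is known for heavy expression in the epithelium of the choroid plexus. In amygdala it read 9.74, 9.77 and 9.94 in DZP mice and 10.00, 10.27 and 10.34 in Ctrl mice. In hippocampus it read 8.28, 8.10 and 7.37 in DZP mice and 7.12, 8.04 and 7.83 in Ctrl mice, and in cortex 6.35, 6.33 and 6.48 in DZP mice and 6.52, 6.22 and 6.06 in Ctrl mice. The 3 regions did not overlap: each amygdala array lay above each hippocampal array, and each hippocampal array above each cortical array. All 6 cortical arrays read below the negative-control mean, so a fold over cortex is given as a lower bound against that mean. The signal was at least 8.28-fold higher in amygdala than in cortex in DZP mice (log2 difference of the measured signals 3.43 ± 0.23 SE, limma adjusted p = 2.91e-08) and at least 10.82-fold higher in Ctrl mice (3.94 ± 0.23, adjusted p = 5.21e-09). Amygdala exceeded hippocampus 3.73-fold in DZP mice (1.90 ± 0.23, adjusted p = 2.91e-05) and 5.82-fold in Ctrl mice (2.54 ± 0.23, adjusted p = 1.12e-06). Hippocampus exceeded cortex at least 2.22-fold in DZP mice (1.53 ± 0.23, adjusted p = 1.56e-04) and at least 1.86-fold in Ctrl mice (1.39 ± 0.23, adjusted p = 3.31e-04).

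Htr1b encodes a Gi-coupled receptor that sits largely on axon terminals and limits transmitter release. It read 8.56, 8.52 and 8.36 in amygdala of DZP mice and 8.40, 8.89 and 8.04 in amygdala of Ctrl mice. Hippocampus gave 7.37, 7.20 and 7.23 in DZP mice and 6.86, 7.21 and 7.23 in Ctrl mice, and cortex 7.03, 7.13 and 7.13 in DZP mice and 6.78, 7.13 and 6.93 in Ctrl mice. All 6 amygdala arrays lay above the other 12 arrays. The excess of amygdala over cortex was 2.61-fold in DZP mice (1.39 ± 0.16, adjusted p = 1.36e-05) and 2.83-fold in Ctrl mice (SE of the log2 difference 0.16, adjusted p = 4.89e-06). The excess over hippocampus was 2.32-fold in DZP mice (1.21 ± 0.16, adjusted p = 9.21e-05) and 2.54-fold in Ctrl mice (1.34 ± 0.16, adjusted p = 2.66e-05). Hippocampus and cortex differed by 0.17 ± 0.16 in DZP mice (adjusted p = 0.597) and 0.16 ± 0.16 in Ctrl mice (adjusted p = 0.626).

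Htr1d was also highest in amygdala, at a dim signal. Its product is a close relative of the Htr1b receptor and is likewise found on nerve terminals. Amygdala read 6.30, 6.40 and 6.26 in DZP mice and 6.28, 6.17 and 6.05 in Ctrl mice, above every array of the other regions, which read 5.41 to 5.73. All 18 arrays read below the negative-control mean, so no fold is given. Amygdala exceeded cortex by 0.76 ± 0.09 in DZP mice (adjusted p = 9.54e-06) and 0.63 ± 0.09 in Ctrl mice (adjusted p = 5.59e-05). It exceeded hippocampus by 0.75 ± 0.09 in DZP mice (adjusted p = 1.99e-05) and 0.68 ± 0.09 in Ctrl mice (adjusted p = 4.08e-05).

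The promoter windows of Htr2c and Htr1b, the genes with the largest excess in amygdala over cortex of Ctrl mice among the 10, are given here for comparison with those of Htr2a and Htr5a, which were lower in amygdala and hippocampus than in cortex. Each window runs from 250 bases before to 50 bases after the start of the gene in RefSeq on GRCm38.p6, which held a window for 8 of the 10 genes and none for Htr3a and Htr4. Capitals mark matches on either strand to TATAAA (the TATA box, held by 13.6% of 32851 promoter windows of the same length), GGGCGG (the GC box, 35.7%), CCAAT (the CCAAT box, 37.4%) or TGACGTCA (the cyclic AMP response element, 1.8%), and no matches overlapped. The windows lie at chrX:146962263-146962562 on the plus strand (Htr2c), chr9:81633783-81634082 on the minus strand (Htr1b), chr14:74640624-74640923 on the plus strand (Htr2a) and chr5:27841697-27841996 on the plus strand (Htr5a).
Htr2c: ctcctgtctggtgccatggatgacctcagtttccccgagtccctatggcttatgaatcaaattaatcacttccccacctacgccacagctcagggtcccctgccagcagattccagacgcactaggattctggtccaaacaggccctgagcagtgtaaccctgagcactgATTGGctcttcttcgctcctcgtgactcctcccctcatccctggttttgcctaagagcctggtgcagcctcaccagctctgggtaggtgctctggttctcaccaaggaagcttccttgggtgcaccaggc
Htr1b: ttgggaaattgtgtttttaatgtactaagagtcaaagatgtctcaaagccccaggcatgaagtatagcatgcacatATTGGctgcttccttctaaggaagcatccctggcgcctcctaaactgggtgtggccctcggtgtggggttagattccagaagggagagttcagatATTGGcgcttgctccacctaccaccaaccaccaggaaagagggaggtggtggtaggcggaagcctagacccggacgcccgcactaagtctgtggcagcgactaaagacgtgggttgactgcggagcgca
Htr2a: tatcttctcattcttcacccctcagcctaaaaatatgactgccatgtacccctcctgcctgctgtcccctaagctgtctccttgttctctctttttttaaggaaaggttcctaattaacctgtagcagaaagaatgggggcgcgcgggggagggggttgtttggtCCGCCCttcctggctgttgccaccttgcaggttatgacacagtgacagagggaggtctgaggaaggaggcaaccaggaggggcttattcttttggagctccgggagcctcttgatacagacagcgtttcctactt
Htr5a: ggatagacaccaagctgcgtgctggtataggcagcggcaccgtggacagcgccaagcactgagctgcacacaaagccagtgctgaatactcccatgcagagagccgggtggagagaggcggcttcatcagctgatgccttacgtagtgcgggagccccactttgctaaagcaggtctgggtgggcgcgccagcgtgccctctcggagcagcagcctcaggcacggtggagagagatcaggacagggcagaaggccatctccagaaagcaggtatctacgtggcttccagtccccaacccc
The Htr2c window held 1 match to CCAAT (read as ATTGG on the strand shown), the Htr1b window held 2, the Htr2a window 1 match to GGGCGG (read as CCGCCC), and the Htr5a window 0. The TATA box and the cyclic AMP response element were in 0 of the 9 windows of the receptor genes. The GC content was 56.3% for Htr2c, 53.3% for Htr1b, 52.0% for Htr2a and 61.3% for Htr5a, against a median of 52.7% over all windows. These are matches of letters only, and no measurement of factor binding was made.

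Htr4 encodes a Gs-coupled receptor that enhances transmission at hippocampal synapses. Hippocampus read 7.33, 7.16 and 7.24 in DZP mice and 7.44, 7.22 and 7.05 in Ctrl mice. Amygdala read 6.83, 6.99 and 6.63 in DZP mice and 6.58, 6.65 and 6.71 in Ctrl mice, and cortex 5.46, 5.45 and 5.17 in DZP mice and 5.64, 5.26 and 5.18 in Ctrl mice. The regions did not overlap, and every cortical array read below the negative-control mean. Against that mean, hippocampus exceeded cortex at least 1.39-fold in DZP mice (log2 difference of the measured signals 1.88 ± 0.13, adjusted p = 4.90e-08) and at least 1.38-fold in Ctrl mice (1.88 ± 0.13, adjusted p = 3.96e-08). Amygdala, which read above it on 2 of 3 arrays in DZP mice and 0 of 3 in Ctrl mice, exceeded cortex by 1.45 ± 0.13 in DZP mice (adjusted p = 7.74e-07) and 1.29 ± 0.13 in Ctrl mice (adjusted p = 2.44e-06). Amygdala was lower than hippocampus, with the smaller log2 difference of -0.43 ± 0.13 in DZP mice (adjusted p = 0.0465) and -0.59 ± 0.13 in Ctrl mice (adjusted p = 0.00658). The call in DZP mice was lost without any single array of that contrast other than amygdala replicate 2, with adjusted p between 0.0572 and 0.157.

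Htr1a encodes a Gi-coupled receptor that opens potassium channels, serves as the autoreceptor of raphe neurons and is abundant on hippocampal pyramidal cells. It read 7.94, 7.75 and 7.88 in hippocampus of DZP mice and 7.69, 7.84 and 7.53 in hippocampus of Ctrl mice. Amygdala gave 6.50, 6.66 and 6.79 in DZP mice and 6.48, 6.75 and 6.70 in Ctrl mice, and cortex 7.02, 6.87 and 6.96 in DZP mice and 6.63, 6.85 and 6.88 in Ctrl mice. The 6 hippocampal arrays lay above the other 12, whereas amygdala and cortex overlapped in Ctrl mice. Hippocampus exceeded cortex 1.87-fold in DZP mice (0.91 ± 0.11, adjusted p = 1.36e-05) and 1.87-fold in Ctrl mice (0.90 ± 0.11, adjusted p = 1.23e-05). Amygdala was lower than hippocampus, with a log2 difference of -1.21 ± 0.11 in DZP mice (adjusted p = 1.28e-06) and -1.04 ± 0.11 in Ctrl mice (adjusted p = 4.16e-06). Amygdala minus cortex was -0.30 ± 0.11 in DZP mice (adjusted p = 0.0531) and -0.14 ± 0.11 in Ctrl mice (adjusted p = 0.457). The difference in DZP mice was past the threshold without DZP amygdala replicate 3 (-0.37, adjusted p = 0.0346) and with each array centred on its median (-0.42, adjusted p = 0.0232), a scaling that shifted all differences of that contrast by -0.11. It was smaller, at -0.16 ± 0.14, without the amygdala arrays high in striatal genes described below, a fit that leaves 1 DZP amygdala array.

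Htr2a encodes the Gq-coupled receptor through which serotonergic hallucinogens act, and is known for its level in cortical pyramidal cells. Amygdala read 9.64, 9.65 and 9.74 in DZP mice and 8.77, 9.77 and 9.50 in Ctrl mice. Hippocampus read 9.10, 8.95 and 8.89 in DZP mice and 8.59, 8.73 and 9.02 in Ctrl mice, and cortex 10.82, 11.20 and 11.05 in DZP mice and 10.80, 10.90 and 11.15 in Ctrl mice. Every cortical array lay above the other 12. The amygdala signal was 0.39 of that of cortex in DZP mice (-1.35 ± 0.19, adjusted p = 1.00e-04) and 0.33 in Ctrl mice (-1.60 ± 0.19, adjusted p = 1.45e-05). The hippocampal signal was 0.24 of that of cortex in DZP mice (-2.05 ± 0.19, adjusted p = 1.25e-06) and 0.22 in Ctrl mice (-2.17 ± 0.19, adjusted p = 5.41e-07).

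Amygdala and hippocampus were closer for Htr2a. Amygdala was higher by 0.70 ± 0.19 in DZP mice (adjusted p = 0.0268), a call lost without any single array of the contrast other than hippocampus replicate 1 (adjusted p 0.0628 to 0.0926), and with each array centred on its median (0.60, adjusted p = 0.0785). In Ctrl mice the difference of 0.57 ± 0.19 was not called (adjusted p = 0.0740), but it was 0.86 with an adjusted p of 0.00107 without Ctrl amygdala replicate 1, the array that read 8.77. It was smaller in the alternatives described below. These gave 0.36 ± 0.20 without the amygdala arrays high in striatal genes and 0.47 ± 0.26 without the arrays high in choroid plexus genes.

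Htr5a encodes a Gi-coupled receptor of forebrain neurons. Amygdala read 7.38, 7.46 and 7.71 in DZP mice and 7.72, 7.77 and 7.79 in Ctrl mice. Hippocampus read 7.51, 7.58 and 7.28 in DZP mice and 7.02, 7.19 and 7.32 in Ctrl mice, and cortex 8.13, 8.45 and 8.32 in DZP mice and 8.22, 8.25 and 8.45 in Ctrl mice. As for Htr2a, the 6 cortical arrays lay above the rest. Amygdala was lower than cortex, with a log2 difference of -0.78 ± 0.11 in DZP mice (adjusted p = 1.10e-04) and -0.55 ± 0.11 in Ctrl mice (adjusted p = 0.00263). Hippocampus was lower than cortex, with a log2 difference of -0.84 ± 0.11 in DZP mice (adjusted p = 5.85e-05) and -1.13 ± 0.11 in Ctrl mice (adjusted p = 2.22e-06). Amygdala minus hippocampus was 0.06 ± 0.11 in DZP mice (adjusted p = 0.825) and 0.58 ± 0.11 in Ctrl mice (adjusted p = 0.00234), and the test of that contrast between treatments is given with the effects of DZP.

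Htr1f encodes a Gi-coupled receptor, the target of a class of migraine drugs. Hippocampus was its lowest region, with 7.20, 7.29 and 7.25 in DZP mice and 7.64, 7.54 and 7.44 in Ctrl mice. Amygdala gave 7.86, 8.01 and 7.98 in DZP mice and 8.35, 8.29 and 7.97 in Ctrl mice, and cortex 8.01, 8.03 and 7.94 in DZP mice and 7.94, 7.91 and 8.04 in Ctrl mice. No hippocampal array reached any array of the other regions, which overlapped each other. Amygdala exceeded hippocampus by 0.70 ± 0.09 in DZP mice (adjusted p = 6.37e-05) and 0.66 ± 0.09 in Ctrl mice (adjusted p = 8.65e-05). Hippocampus was lower than cortex, with a log2 difference of -0.75 ± 0.09 in DZP mice (adjusted p = 1.98e-05) and -0.42 ± 0.09 in Ctrl mice (adjusted p = 0.00355). Amygdala minus cortex was -0.05 ± 0.09 in DZP mice (adjusted p = 0.759) and 0.24 ± 0.09 in Ctrl mice (adjusted p = 0.0884), and the difference in Ctrl mice was past the threshold without Ctrl amygdala replicate 3 (0.36, adjusted p = 0.00575). That difference was 0.20 ± 0.10 without the amygdala arrays high in striatal genes described below.

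Htr3a encodes the obligatory subunit of the serotonin-gated ion channel and marks a class of interneurons born in the caudal ganglionic eminence. Amygdala read 7.16, 7.30 and 7.42 in DZP mice and 7.41, 7.34 and 7.57 in Ctrl mice. Hippocampus read 7.56, 7.43 and 7.25 in DZP mice and 7.28, 7.29 and 7.39 in Ctrl mice, and cortex 7.03, 7.06 and 6.82 in DZP mice and 6.97, 7.05 and 7.0 in Ctrl mice. Each cortical array read below every array of the other regions, but the margins were small. Amygdala exceeded cortex by 0.32 ± 0.10 in DZP mice (adjusted p = 0.0246) and 0.43 ± 0.10 in Ctrl mice (adjusted p = 0.00446). Hippocampus exceeded cortex by 0.45 ± 0.10 in DZP mice (adjusted p = 0.00397) and 0.31 ± 0.10 in Ctrl mice (adjusted p = 0.0364). The last call was lost without any single array of its 6 (adjusted p 0.0653 to 0.123) and with each array centred on its median (0.26, adjusted p = 0.112). The call between amygdala and cortex in DZP mice was lost without DZP cortex replicate 3 (0.25, adjusted p = 0.112), DZP amygdala replicate 2 (0.32, adjusted p = 0.0622) or DZP amygdala replicate 3 (0.26, adjusted p = 0.0902), and with the centring (0.21, adjusted p = 0.174).

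Htr7, whose product is a Gs-coupled receptor linked to circadian timing and thalamic circuits, was the only one of the 10 with no call between regions in the fit described here. Its 18 values lay between 6.34 and 7.10, and each of the 6 hippocampal arrays (6.34 to 6.67) lay below every amygdala and cortical array, while amygdala and cortex overlapped. The largest differences in Ctrl mice were 0.34 ± 0.11 for amygdala minus hippocampus (adjusted p = 0.0565) and -0.33 ± 0.11 for hippocampus minus cortex (adjusted p = 0.0530). Both passed the threshold without Ctrl hippocampus replicate 3 (0.42 with adjusted p = 0.0353, and -0.40 with adjusted p = 0.0325), the first also without Ctrl amygdala replicate 3 (0.41, adjusted p = 0.0393). In the alternatives described below the first was 0.23 ± 0.10 without the amygdala arrays high in striatal genes. It was 0.43 ± 0.14 without the arrays high in choroid plexus genes. In DZP mice amygdala minus hippocampus was 0.31 ± 0.11 (adjusted p = 0.0851), and 0.40 without DZP amygdala replicate 2 (adjusted p = 0.0458).

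**Figure D2:**
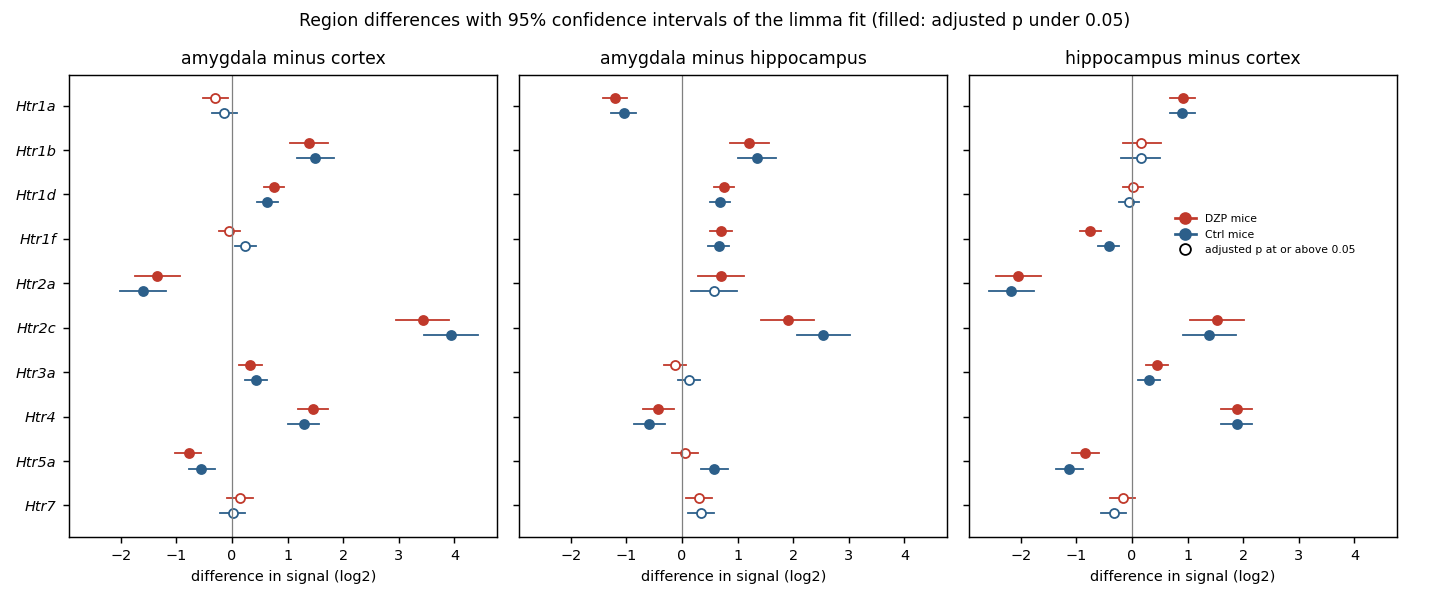
Differences in signal (log2) between regions for the 10 genes, in DZP mice (red) and Ctrl mice (blue), with 95% confidence intervals of the limma fit; filled points have an adjusted p under 0.05. Htr2c stands at 3.43 and 3.94 for amygdala minus cortex, and Htr2a at -2.05 and -2.17 for hippocampus minus cortex.

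The Htr2c values in hippocampus were set beside the markers of choroid plexus and ependyma, tissue that borders the hippocampus in the ventricle. Htr2c was lowest on the hippocampal arrays lowest in these markers, but the order did not hold among the rest. A link between them was not tested. The mean of 13 such genes was 7.33, 7.48 and 6.02 in the hippocampal arrays of DZP mice and 6.05, 8.10 and 6.73 in those of Ctrl mice, where Htr2c read 8.28, 8.10 and 7.37 and 7.12, 8.04 and 7.83. The marker mean was 6.07, 6.08 and 6.07 in amygdala of DZP mice and 6.04, 6.07 and 8.01 in amygdala of Ctrl mice, and 5.79 to 5.83 in cortex. Ttr, the transthyretin of choroid plexus epithelium, averaged 12.79 in hippocampus and 6.62 in cortex of DZP mice, and 12.06 and 6.48 in Ctrl mice, with an SE of 2.49 for the difference (limma adjusted p = 0.137 and 0.168). Kl, the klotho gene, averaged 7.85 and 5.26 in DZP mice and 8.21 and 5.34 in Ctrl mice (limma adjusted p = 0.0188 and 0.00814). Of the 13 genes, 8 lay at or below the negative-control mean over the 18 arrays. The 4 arrays with a marker mean above 7 were left out in an alternative chosen after seeing the data. Htr2c in hippocampus then exceeded cortex by 0.99 ± 0.24 in DZP mice (adjusted p = 0.0269) and 1.21 ± 0.19 in Ctrl mice (adjusted p = 0.00110), with 1 DZP and 2 Ctrl hippocampal arrays left. The test of the lone DZP array takes its error from the other groups and assumes that the array varies as they do. In amygdala, where the markers were low on 5 of 6 arrays, the excess of Htr2c over cortex in Ctrl mice was 3.87 ± 0.19 without those arrays (adjusted p = 2.48e-07).

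**Figure D3:**
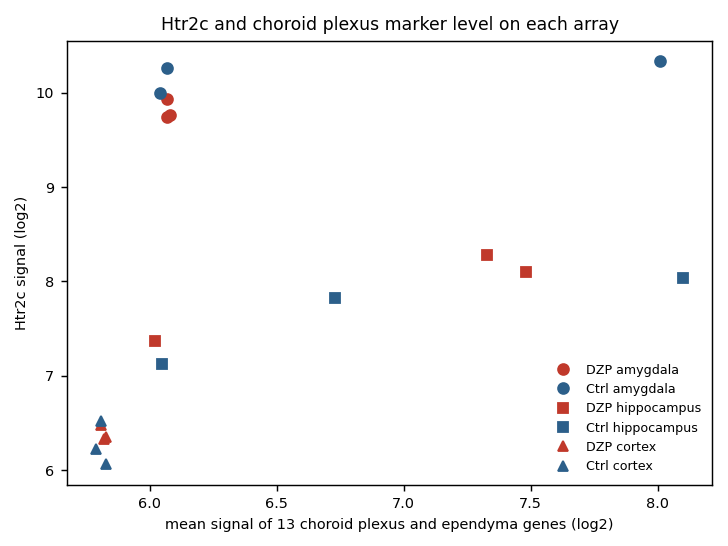
Htr2c signal (log2, vertical axis) against the mean signal of 13 choroid plexus and ependyma genes (log2, horizontal axis) on each of the 18 arrays, by treatment (colour) and region (shape). Hippocampal arrays with a marker mean of 6.02 and 6.05 read 7.37 and 7.12 for Htr2c and the other 4 read 7.83 to 8.28, while 5 of 6 amygdala arrays read 9.74 or more at a marker mean of 6.04 to 6.08.

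Without the same 4 arrays some smaller differences were no longer called, although most were about as large. For Htr4, amygdala minus hippocampus was -0.43 ± 0.21 in DZP mice (adjusted p = 0.271) and -0.63 ± 0.18 in Ctrl mice (adjusted p = 0.0601), against -0.43 and -0.59 with all arrays. For Htr2a it was 0.79 ± 0.30 in DZP mice (adjusted p = 0.157), against 0.70. For Htr3a, hippocampus minus cortex was 0.28 ± 0.12 in DZP mice (adjusted p = 0.248) and 0.33 ± 0.10 in Ctrl mice (adjusted p = 0.0511), against 0.45 and 0.31. Htr1f was then called between amygdala and cortex in Ctrl mice (0.36, adjusted p = 0.0149).

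The striatal marker mean varied within amygdala, at 9.64, 9.80 and 8.77 in DZP mice and 8.65, 9.09 and 8.14 in Ctrl mice. In cortex the marker mean was 7.16 to 7.30 in DZP mice and 7.25 to 7.35 in Ctrl mice, below every amygdala array. The strongest genes of this list between amygdala and cortex of Ctrl mice were Drd2, a dopamine receptor (9.99 and 5.45, limma adjusted p = 1.33e-06), and Penk, which encodes enkephalin (11.32 and 7.38, limma adjusted p = 1.18e-08). All 13 striatal genes had a higher mean in amygdala of DZP mice than of Ctrl mice, with a median difference of 0.82, and 0 of 13 were called at the adjusted threshold. The study, by its unadjusted P under 0.05 and 1.5-fold limit, listed Gpr6 and Drd1 (there as Drd1a) as higher in amygdala after DZP. Without the 3 amygdala arrays above 9, also left out after seeing the data, 1 DZP and 2 Ctrl amygdala arrays were left, and values of DZP amygdala rest on that lone array with an error taken from the other groups. The amygdala arrays kept still read above cortex in these markers, so the striatal signal was lowered but not removed. Whether striatal tissue adds to the receptor differences was not tested. Htr1b in amygdala exceeded cortex by 1.27 ± 0.18 in DZP mice (adjusted p = 5.48e-04) and 1.28 ± 0.14 in Ctrl mice (adjusted p = 3.69e-05). Htr2c exceeded cortex by 3.55 ± 0.35 in DZP mice (adjusted p = 4.02e-05) and 3.90 ± 0.28 in Ctrl mice (adjusted p = 1.01e-06). In DZP mice Htr3a in amygdala minus cortex was then 0.45 (adjusted p = 0.0544), against 0.32 with all arrays, Htr2a in amygdala minus hippocampus 0.77 (adjusted p = 0.116), against 0.70, and Htr4 -0.61 (adjusted p = 0.0935), against -0.43, so these differences were larger and no longer called.

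The effect of DZP on the receptors was compared next. Of the 10 genes, 0 were called in amygdala, 0 in hippocampus and 0 in cortex, where 0%, 0.0728% and 0.0364% of all clusters were. At an unadjusted p under 0.05 the numbers were 2, 2 and 0, against 9.40%, 11.2% and 7.83% of all clusters. The differences between DZP and Ctrl mice ran from -0.39 to 0.33 in amygdala, from -0.29 to 0.28 in hippocampus and from -0.09 to 0.17 in cortex, with medians of 0.02, 0.13 and 0.03, against 0.03, -0.01 and -0.00 over all clusters. In hippocampus 9 of 10 means were higher in DZP mice, and the share of all clusters with a higher mean is not given here. Without the arrays high in choroid plexus genes, which leaves 1 DZP hippocampal array, Htr2c (-0.10), Htr3a (-0.08) and Htr4 (-0.01) were lower there. The rest kept their direction. The values of DZP and Ctrl mice did not overlap for 2 genes in amygdala, 1 in hippocampus and 0 in cortex, which holds for 13.1%, 16.1% and 14.6% of all clusters. A one-way analysis of variance per gene with the criteria of the methods (P under 0.05 and at least a 1.5-fold change) also named 0 of the 10 genes in each region. Its unadjusted P alone was under 0.05 for Htr2c in amygdala and Htr1f in hippocampus, and neither was called after Benjamini-Hochberg adjustment.

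Htr1f had the lowest p among the 10 in hippocampus. As given above, its DZP arrays read 7.20, 7.29 and 7.25 there, below all 3 Ctrl arrays at 7.64, 7.54 and 7.44, and the difference was -0.29 (95% confidence interval -0.49 to -0.10, limma adjusted p = 0.213). In amygdala the DZP arrays read 7.86, 8.01 and 7.98 and the Ctrl arrays 8.35, 8.29 and 7.97, which overlapped, with a difference of -0.26 (interval -0.45 to -0.07, limma adjusted p = 0.406). In cortex the difference was 0.03 (interval -0.16 to 0.22). After averaging the 3 regions for each treatment and replicate number, which need not mark 1 mouse, Htr1f differed by -0.17 ± 0.06 (limma adjusted p = 0.409), and 0 of 10 genes and 0 of all clusters were called.

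For Htr5a the differences had opposite signs in amygdala and hippocampus, and both were short of a call. Its DZP arrays in amygdala, 7.38, 7.46 and 7.71, lay below the Ctrl arrays at 7.72, 7.77 and 7.79 (difference -0.24, interval -0.48 to -0.00, limma adjusted p = 0.524). In hippocampus the DZP arrays read 7.51, 7.58 and 7.28 and the Ctrl arrays 7.02, 7.19 and 7.32, with overlap (difference 0.28, interval 0.04 to 0.52, limma adjusted p = 0.354). The test of the difference between these effects, amygdala minus hippocampus, gave -0.52 (limma adjusted p = 0.413), and 0 of the 10 genes were called in this or the other differences between regions, against 0.0121% of all clusters for amygdala minus hippocampus, 0.00455% for hippocampus minus cortex and 0% for amygdala minus cortex. Without the 3 amygdala arrays high in striatal genes the amygdala difference of Htr5a was -0.05 ± 0.17, which sets the lone DZP array at 7.71 against 2 Ctrl arrays. Without the 4 arrays high in choroid plexus genes its hippocampal difference was 0.11 ± 0.18, which sets the lone DZP array at 7.28 against 2 Ctrl arrays.

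Htr2c in amygdala read lower on every DZP array, 9.74, 9.77 and 9.94, than on every Ctrl array, 10.00, 10.27 and 10.34. The difference of -0.39 had an interval of -0.87 to 0.09 and was not called (limma adjusted p = 0.613). It was -0.32 ± 0.19 without the arrays high in choroid plexus genes and -0.23 ± 0.37 without those high in striatal genes, where 1 DZP amygdala array is left. The interval of -0.87 to 0.09 uses a spread shared over all groups. The standard deviation of Htr2c was 0.11 in amygdala of DZP mice and 0.18 in that of Ctrl mice, but 0.48 in hippocampus of each treatment. The intervals are those of single genes, without adjustment over the clusters. For Htr1a in hippocampus the interval ran from -0.05 to 0.39, for Htr2a in amygdala from -0.08 to 0.73 and for Htr4 in hippocampus from -0.27 to 0.28. A p above the threshold does not show that the levels were equal.

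**Figure D4:**
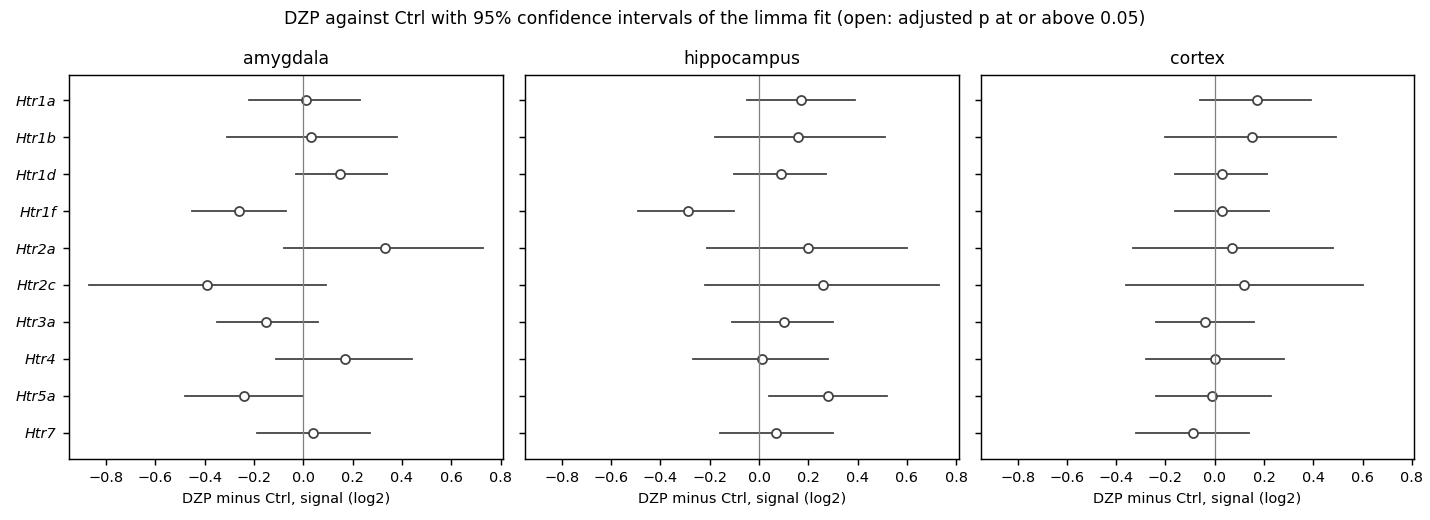
DZP minus Ctrl signal (log2) of the 10 genes in amygdala, hippocampus and cortex, with 95% confidence intervals of the limma fit. Open points have an adjusted p at or above 0.05, as for every gene and region here; the intervals of Htr1f in amygdala and hippocampus, Htr5a in amygdala and Htr5a in hippocampus leave out 0 before adjustment.

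Genes around the receptors were read from lists of pathway genes. No gene of these lists was called between DZP and Ctrl mice in any region or in the averaged effect, among 4 other receptor genes, 9 genes of serotonin synthesis, transport and breakdown, 9 G protein alpha subunits, 16 effectors and regulators, and 10 genes whose products bind, edit or control the receptors. The list medians lay between -0.08 and 0.11. Tph2, the enzyme of serotonin synthesis in neurons, and Slc6a4, the serotonin transporter of raphe neurons, averaged 4.91 and 5.35 in amygdala of DZP mice and 4.96 and 5.18 in amygdala of Ctrl mice, below the negative-control mean as for all 5 measured markers of serotonergic neurons.

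Between regions of Ctrl mice, where 15.5% of all clusters were called for amygdala against cortex, 10.3% for amygdala against hippocampus and 15.0% for hippocampus against cortex, some genes of these lists were called. Counts such as 1 of 9, 2 of 9 or 1 of 4 are near those shares. Of the other receptor genes, Htr5b, a relative of Htr5a that is not functional in humans, averaged 8.32 in hippocampus and 6.82 in cortex (SE of the difference 0.10, limma adjusted p = 1.83e-08) and 7.30 in amygdala (0.47 over cortex, limma adjusted p = 0.00256), so its order of regions was unlike that of Htr5a. Htr2b, a Gq-coupled receptor mainly of peripheral tissue, averaged 5.17 in hippocampus and 4.94 in cortex (0.23 ± 0.08, limma adjusted p = 0.0492). Both Htr2b means lay below the negative-control mean, so this small difference is one between dim signals. Of the 4 genes, 2 were higher in hippocampus than in cortex, 1 was higher in amygdala than in cortex and 1 was lower in amygdala than in hippocampus. Over all arrays, 3 of the 4 lay at or below the negative-control mean.

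Among synthesis, transport and breakdown genes, 5 of 9 were higher in amygdala than in cortex, 2 of 9 were higher in hippocampus than in cortex, and none was lower, against 15.5% and 15.0% of all clusters called in either direction. Over all arrays, 6 of the 9 lay at or below the negative-control mean, the level that marks dim signals. Slc29a4, a low-affinity monoamine transporter, averaged 9.12 in hippocampus and 6.80 in cortex (2.32 ± 0.16, limma adjusted p = 3.18e-08), and 8.32 in amygdala (1.52 over cortex, limma adjusted p = 3.18e-06). Between amygdala and hippocampus 2 were higher, with Ddc, the decarboxylase of serotonin and dopamine synthesis, at 0.60 ± 0.14 (limma adjusted p = 0.00731), and 1, Slc29a4, was lower (-0.80 ± 0.16, limma adjusted p = 0.00272).

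Of the 16 effectors and regulators, 3 were higher and 12 lower in amygdala than in cortex, with a median of -0.78 against 0.03 over all clusters. Adcy5, the adenylyl cyclase typical of striatum, averaged 11.87 in amygdala and 9.78 in cortex (2.09 ± 0.19, limma adjusted p = 7.61e-07), beside the striatal markers given above. Plcb4, a phospholipase C driven by Gq, averaged 9.11 in amygdala and 11.20 in cortex (-2.09 ± 0.15, limma adjusted p = 6.53e-08). In hippocampus against cortex 2 were higher and 8 lower, from Kcnj6, a potassium channel opened by Gi-coupled receptors (0.52 ± 0.16, limma adjusted p = 0.0426), to Rgs4, which shortens Gi and Gq signals (-2.87 ± 0.18, limma adjusted p = 1.70e-08). Between amygdala and hippocampus 6 were higher, led by Adcy5 (2.09), and 5 lower, led by Adcy1, a calcium-activated cyclase (-2.31 ± 0.10, limma adjusted p = 1.55e-09).

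Among the G protein alpha subunits, Gnal, the Gs-like subunit of striatum and olfactory neurons, was higher in amygdala than in cortex by 0.97 ± 0.18 (limma adjusted p = 0.00114) and than in hippocampus, averaging 12.76 in amygdala and 11.36 in hippocampus (limma adjusted p = 5.36e-05), while Gnaq, the Gq subunit, was lower in amygdala than in cortex (difference -0.23 ± 0.07, limma adjusted p = 0.0243) and than in hippocampus (difference -0.46 ± 0.07, limma adjusted p = 1.50e-04). In all, 3 of 9 were higher and 1 lower in amygdala against cortex, 3 of 9 were higher and 1 lower in amygdala against hippocampus, and 1 of 9, Gnaq at 0.23 (limma adjusted p = 0.0264), was higher in hippocampus against cortex. Of the 10 genes that bind, edit or control the receptors, Nr3c2, the mineralocorticoid receptor, which represses Htr1a transcription in rat hippocampus, averaged 12.07 in hippocampus and 9.12 in cortex (2.95 ± 0.14, limma adjusted p = 6.91e-10). Nr3c1, the glucocorticoid receptor, was lower in hippocampus than in cortex (-0.63 ± 0.10, limma adjusted p = 2.36e-04). Adar, an enzyme that edits Htr2c transcripts, was higher in amygdala than in hippocampus by 0.39 ± 0.08 (limma adjusted p = 0.00315). This list held 2 higher and 4 lower genes in hippocampus against cortex, and 3 higher and 2 lower in amygdala against cortex.

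The genes whose pattern over the 18 arrays was most like that of each receptor were found by Pearson's r among 22878 clusters with 1 gene symbol, as a description. The arrays share mice, platform and region contrasts, so these values carry no test. The closest were Npy2r (r = 0.987) and Tmem150c (0.986) for Htr4, Plce1 (0.986) and Csmd3 (0.986) for Htr2c, Cdc42bpb (0.984) and Clstn1 (0.970) for Htr5a, and Pbx3 (0.982) and 1110015O18Rik (0.978) for Htr1b. For Htr2a they were Ldhb (0.980) and Camk2n1 (0.980), for Htr1d Six3os1 (0.979) and Adcy5 (0.972), and for Htr1a Tbc1d8b (0.975) and Itsn2 (0.974). Lower values were found for Htr3a (Slc6a15, 0.934, and Cntn1, 0.933), Htr1f (Camk1g, 0.933, and Rtl8c, 0.928) and Htr7 (Fbxl19, 0.885, and Nr2f1, 0.880). These receptor genes varied by 0.75 to 1.15 over all arrays, and Htr1d, with higher values of r, by 0.99.

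At the exon level the 10 genes had 134 probe sets, 81 for stretches of exon (probe selection regions) and 53 for exon junctions. These values are a second summary of the same 18 arrays, not an independent measurement. The negative-control mean was exceeded on all 18 arrays by 46 probe sets and on no array by 33. Probe sets were tested with limma over all 719071 probe sets. Exon usage, the difference of a probe set from the other probe sets of its gene, was tested with diffSplice over 572594 probe sets.

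In Ctrl mice 59 of 134 probe sets differed between amygdala and cortex (50 higher, 9 lower), where 10.6% of all probe sets did (5.13% higher, 5.44% lower). Between hippocampus and cortex 51 differed (36 higher, 15 lower, against 9.03%, 4.07% higher and 4.96% lower), and between amygdala and hippocampus 50 (41 higher, 9 lower, against 7.09%, 3.81% higher and 3.28% lower). In at least 1 of the 3 contrasts 73 of the 134 were called, against 16.9% of all probe sets. For Htr2c, 22 of 25 probe sets were higher in amygdala than in cortex, with a median of 3.97 over the 25 and a range from -1.26 to 6.74. For Htr2a, 7 of 7 were lower in amygdala than in cortex (-3.19 to -1.34) and 7 of 7 lower in hippocampus than in cortex (-3.55 to -1.43). For Htr1b, 8 of 9 were higher in amygdala than in cortex (0.52 to 2.71 over the 9), and for Htr4, 15 of 28 were higher in hippocampus than in cortex (-0.33 to 6.18 over the 28).

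**Figure D5:**
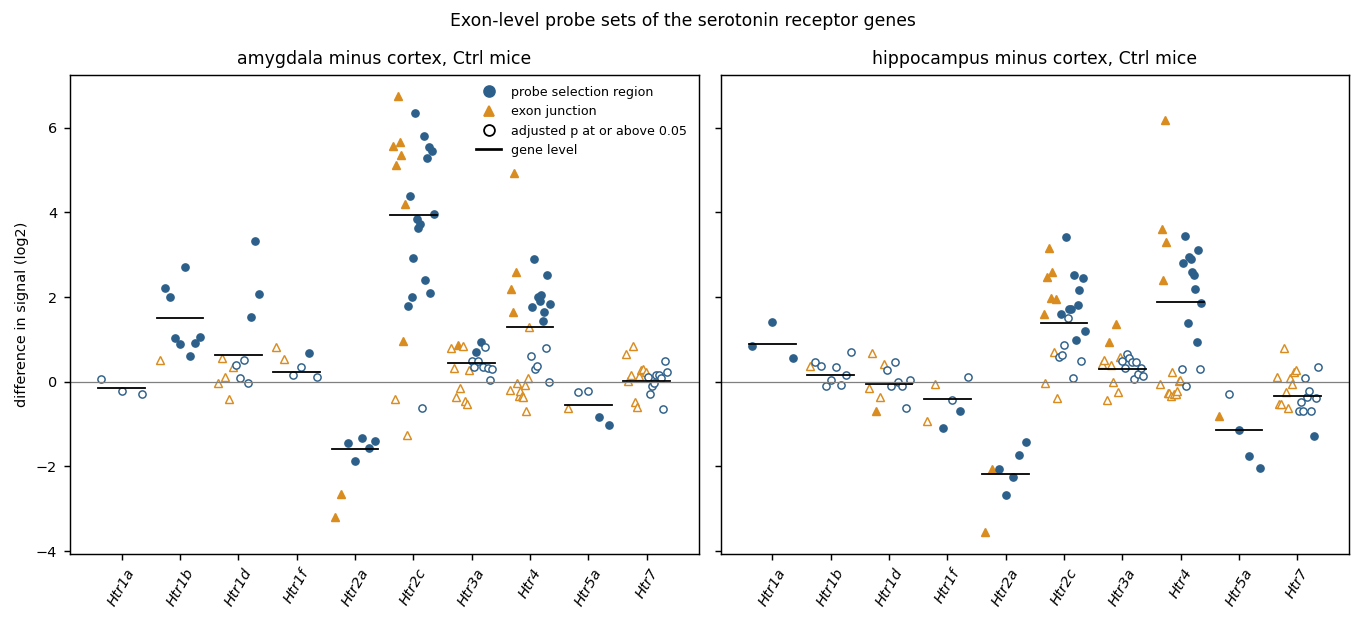
Difference in signal (log2) between amygdala and cortex (left) and between hippocampus and cortex (right) in Ctrl mice for each of the 134 exon-level probe sets, as circles for probe selection regions and triangles for junctions, filled where the adjusted p is under 0.05, with a line at the gene-level difference. Within Htr4 the hippocampal probe sets run from -0.33 to 6.18, and within Htr1d the amygdala probe sets run from -0.41 to 3.33.

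Within Htr1d, 1 probe set had the largest excess in amygdala. The probe selection region PSR0400013582 read 10.27, 10.59 and 10.30 in amygdala of DZP mice and 9.26, 10.20 and 9.07 in amygdala of Ctrl mice, against 5.79, 6.43 and 5.61 in hippocampus of DZP mice and 5.42, 5.51 and 5.74 in hippocampus of Ctrl mice. In cortex it read 5.87, 5.95 and 6.27 in DZP mice and 6.36, 5.95 and 6.24 in Ctrl mice. Each amygdala array lay above the negative-control mean and each array of the other regions below it, although the gene-level signal of Htr1d was below it everywhere. In Ctrl mice amygdala exceeded cortex by 3.33 ± 0.27 (limma adjusted p = 5.52e-07), which was 2.86 more than the other probe sets of the gene (diffSplice adjusted p = 5.85e-14). Only 3 of the 12 probe sets of Htr1d were called higher, and the gene-level difference was 0.63. The annotation used here does not tie the probe set to a transcript variant.

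The junction JUC1800002626 of Htr4 read 10.63, 9.48 and 11.15 in hippocampus of DZP mice and 10.88, 9.99 and 10.41 in hippocampus of Ctrl mice. In amygdala it read 8.91, 9.36 and 8.63 in DZP mice and 8.81, 9.27 and 9.42 in Ctrl mice, and in cortex 4.25, 5.81 and 4.62 in DZP mice and 4.64, 3.61 and 4.50 in Ctrl mice. The regions did not overlap, and all cortical arrays read below the negative-control mean, so the size of a difference from cortex depends on values at a dim signal. In Ctrl mice the measured signal of hippocampus exceeded that of cortex by 6.18 ± 0.44 (limma adjusted p = 1.41e-07), 4.88 more than the rest of Htr4 (diffSplice adjusted p = 2.21e-26). The junction JUC1400004477 of Htr2a read 7.92, 7.53 and 8.08 in hippocampus of DZP mice and 8.25, 7.42 and 7.86 in hippocampus of Ctrl mice, against 11.61, 11.18 and 11.78 in cortex of DZP mice and 11.38, 11.33 and 11.47 in cortex of Ctrl mice. Its difference in Ctrl mice was -3.55 ± 0.25 (limma adjusted p = 1.18e-07), -1.52 beyond the rest of Htr2a (diffSplice adjusted p = 0.00778).

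Usage was called for 37 of 134 probe sets between amygdala and cortex, 33 between hippocampus and cortex and 18 between amygdala and hippocampus in Ctrl mice, against 5.29%, 3.83% and 3.88% of all probe sets tested, and for 55 in at least 1 contrast, against 9.19%. Htr2c held 17 of the 37 and Htr4 21 of the 33. Part of these were dim probe sets that did not differ themselves, above all between hippocampus and cortex. Of the 33 there, 18 were not called by their own level, and 13 of those 18 averaged below the negative-control mean even in the higher region, with a median of 5.07, against 9.46 for the 15 that were also called. Between amygdala and cortex 12 of the 37 were not called by their own level, 7 of them so dim. Between amygdala and hippocampus 6 of the 18 were not, 2 of them so dim.

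Under DZP, 0, 1 and 0 of the 134 probe sets were called in amygdala, hippocampus and cortex, where 0.000278%, 0.0533% and 0% of all probe sets were (0.0535% in any of the 3). The probe set was a junction of Htr1d, JUC0400007023, which read 4.75, 4.70 and 4.14 in hippocampus of DZP mice and 3.41, 3.11 and 3.46 in hippocampus of Ctrl mice (1.20 ± 0.20, limma adjusted p = 0.0487). In cortex it read 3.46, 3.74 and 3.36 in DZP mice and 4.05, 4.02 and 3.98 in Ctrl mice (-0.50 ± 0.20, limma adjusted p = 0.838). All these values lie below the negative-control mean, and the call was lost in 17 of 18 fits that left out 1 array. The difference between the effects in hippocampus and cortex, examined after the values were seen, was 1.70 ± 0.29 and was not called (limma adjusted p = 0.138). Usage was called for 1, 1 and 0 probe sets (0.794%, 2.11% and 0.342% of those tested, 3.02% in any of the 3): the same junction in hippocampus (diffSplice adjusted p = 0.0227) and, in amygdala, the junction JUC0900010537 of Htr3a. The Htr3a junction read 5.78, 4.77 and 6.81 in DZP mice and 4.35, 5.26 and 4.46 in Ctrl mice, which overlapped (diffSplice adjusted p = 0.0152).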

How the data were processed

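RNA of 18 tissue samples was measured on Affymetrix mouse transcriptome arrays, each read at gene and at exon level, which gives 36 deposited samples. Per the labels and the study's methods, 100 ng of total RNA was amplified and labelled per array. The authors processed the scans with Affymetrix Expression Console 1.4.1, per the submitters' processing notes, and deposited log2 signal intensities per transcript cluster and per probe set; for the normalization algorithm and the genome build, no source used here names them. No further scaling was applied to the deposited log2 values, and 0 columns of per-sample values were left unused. Groups were taken from sample titles, since the treatment and age tags of the exon-level samples are interchanged. Symbols came from the platform annotation, and 30646 clusters had 1 symbol. The number of arrays limits the precision.

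A model of 6 groups (treatment and region) was fitted to all 18 arrays with limma 3.58.1 in R 4.3.3 (lmFit and eBayes), with Benjamini-Hochberg adjustment over all 65956 clusters or 719071 probe sets, and was tested on simulated data. Where all 3 arrays of a group read below their own negative-control means, folds were given as lower bounds: the mean of the brighter group less the mean of the per-array negative-control means of the dimmer group. The fit treats arrays as independent, although regions share mice. Exon usage was tested with diffSplice, grouped by symbol. The methods' test, a one-way analysis of variance per gene with unadjusted P under 0.05 and a fold change of at least 1.5, was run as an alternative. Other alternatives were array centring, a filter on dim clusters or probe sets, array weights, moderation with trend, a replicate block, a fit of only the groups compared and leaving out each array; 2 more, leaving out arrays rich in choroid plexus or striatal genes, were chosen after seeing the data. The receptor genes, the pathway and marker lists and the rule for genes named in the text (all members; in each pathway list, the called gene with the largest rise and the largest fall between regions of Ctrl mice; in each marker list described, up to 2 genes of large difference; the 2 most similar genes per member; the probe sets of lowest p) were chosen with earlier results of these data known. Tph2 and Slc6a4 were named after their values were seen, and Gpr6 and Drd1 because the study listed them. Plots were drawn with matplotlib 3.10.9.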

Additional observations from a re-analysis of the deposited data

How the results depend on the processing

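All results rest on 3 arrays per group. Over the alternatives run, the count of receptor genes called for DZP was 0 in every region, and the counts called between regions lay within 5 to 9 of 10, against 7 of 10. Of 804 values of single genes between regions under the alternatives, 734 kept direction and side of the threshold, 36 lost the call, 20 gained it, 14 changed sign without a call and 0 reversed. Of 1063 such values for DZP, 986 kept both, 77 changed sign without a call and 0 gained a call. Leaving out 1 array gave 6 to 7 genes for amygdala against cortex in DZP mice and 7 to 8 in Ctrl mice, 5 to 7 and 7 to 8 for amygdala against hippocampus, and 7 and 6 to 7 for hippocampus against cortex. Replicate numbers did not consistently pair the arrays. Same-numbered deviations from the group means correlated at -0.10 to 0.20 between treatments, 2 of 9 over 0.1, against 1 of 18 with different numbers. Between regions they correlated at -0.16 to 0.42, 6 of 18 over 0.1, against 5 of 36. The means were 0.22 against -0.11 for Ctrl cortex and amygdala, but -0.01 against 0.01 for Ctrl hippocampus and amygdala. Whether numbers mark pairs in some groups cannot be told from these values. With the replicate block, 9 genes in place of 7 were called for amygdala against hippocampus in Ctrl mice and 8 in place of 7 for amygdala against cortex in DZP mice, and the other gene-level counts stayed at 7 or 0. The block gained Htr7 (adjusted p = 0.0379) and Htr2a (0.0362) for amygdala against hippocampus in Ctrl mice and Htr1a (0.0484) for amygdala against cortex in DZP mice. For hippocampus against cortex in Ctrl mice it lost Htr3a (0.0585) and gained Htr7 (0.0351). The use of other clusters of a gene was not run, since each gene has 1.

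Exon-level calls under DZP moved most. Of 134 probe sets, 1 was called by level, against 0 with only probe sets at or above the median level (77 measured), 0 with the replicate block and 0 to 2 without 1 array, the 2 without DZP hippocampus replicate 3. Usage was called for 2, against 0 with the filter, 1 with the block and 1 to 4 without 1 array. Between regions of Ctrl mice, level calls numbered 73, against 54 with the filter, 68 with the block and 64 to 73 without 1 array, and usage calls 55, against 23 with the filter and 45 to 54 without 1 array. The filter tests fewer probe sets.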
